A study of Rattus norvegicus with 9 samples.

Results

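Neutrophils kill microbes with proteins stored in granules, and 10 genes for such proteins and for the related alarmins, which are proteins that signal tissue damage once released, were taken by name from the 32043 genes of the table. Of these genes, 5 encode primary granule proteins (Elane, Mpo, Prtn3, Ctsg, and Defa11), and 5 encode later proteins of the lineage (Ltf, Camp, Mmp8, S100a8, and S100a9). The genes were selected on their FPKM in these same libraries, known to differ among the groups, so their levels and differences are given as a description, with no test attached.

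RNA from the knee cartilage of male Sprague–Dawley rats, 8 weeks old when bought, was sequenced in 9 libraries, 3 per group. Control rats had the capsule of the joint opened and closed again. In the model group, knee osteoarthritis (KOA) was induced by the modified Hulth surgery, in which the medial collateral and anterior cruciate ligaments are cut and the medial meniscus is removed, with daily forced activity afterwards. SYD-H rats were operated in that way and then given 4 weeks of gavage with an extract of Shengyu decoction (SYD), an herbal formula, at the highest of 3 doses, and all samples were taken 8 weeks after the operation. The labels call this last group syd, and the name SYD-H for it comes from the study's text. The library names of the group in the labels begin with CXTB, a code that is not explained, and the study also had a positive control arm named CXB, so the identity of the treatment rests on the label syd. The labels give the tissue as cartilage in all 9 samples, whereas the RNA protocol submitted with them speaks of retinas. Nothing states that each library came from a separate rat, so the errors below measure the spread between libraries.

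Neutrophils arise in the marrow from promyelocytes, the stage at which the primary granule genes are transcribed. Those genes are switched off as the cell matures, genes of the specific and gelatinase granules follow at later stages, and transcripts of S100a8 and S100a9 persist in the mature cell, where their products form the calcium-binding complex calprotectin. The ratio of the early to the late transcripts is therefore commonly read as a measure of cell stage. Articular cartilage itself has no blood vessels, and its resident cells are chondrocytes.

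All 10 genes are protein-coding in the table, and several lie close to each other. Elane (chr7:9817252-9819100), which encodes neutrophil elastase, lay 3021 bp from Prtn3 (chr7:9822122-9831944), which encodes proteinase 3, and both stand on the minus strand. S100a8 (chr2:176167124-176167643, plus strand) and S100a9 (chr2:176190361-176193230, minus strand) lay 22717 bp apart. The later genes Mmp8, Camp, and Ltf share chromosome 8. Mmp8 (chr8:4724029-4733520, plus strand) lay far from the pair of Camp (chr8:109841729-109843543, minus strand) and Ltf (chr8:110999948-111022795, plus strand), which were 1156404 bp apart. Mpo (chr10:72594661-72604819, plus strand), Ctsg (chr15:29931003-29937353, minus strand), and Defa11 (chr16:70533436-70535604, minus strand) lie on chromosomes of their own. These positions are those of the authors' table, for which the submitters' processing notes list hg38, a human build, although the gene identifiers are those of the rat, so the rat build is not known here.

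The sequences just before the start sites of 5 members are shown because the factors that switch these genes on during granulocyte development, PU.1 and the C/EBP proteins, act at such sites. They are the 250 bases before the start in RefSeq's GRCr8 assembly of the rat, printed 5′ to 3′ on the gene's own strand, and 8 of the 10 members had an entry. Capitals mark matches to GAGGAA (the PU.1 core, TTCCTC on the other strand) and to TTNNGNAA (a C/EBP form, TTNCNNAA on the other strand). The first 3 belong to primary granule genes, Prtn3 (chr7:10476197-10476446, minus strand), Mpo (chr10:73092152-73092401, plus strand), and Ctsg (chr15:33907597-33907846, minus strand), and the other two to later genes, Mmp8 (chr8:13008640-13008889, plus strand) and S100a9 (chr2:178490623-178490872, minus strand).
Prtn3: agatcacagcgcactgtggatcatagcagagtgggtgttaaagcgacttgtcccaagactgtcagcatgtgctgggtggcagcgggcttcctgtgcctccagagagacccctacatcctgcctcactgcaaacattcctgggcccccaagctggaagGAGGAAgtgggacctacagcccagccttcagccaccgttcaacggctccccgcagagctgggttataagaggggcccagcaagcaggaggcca
Mpo: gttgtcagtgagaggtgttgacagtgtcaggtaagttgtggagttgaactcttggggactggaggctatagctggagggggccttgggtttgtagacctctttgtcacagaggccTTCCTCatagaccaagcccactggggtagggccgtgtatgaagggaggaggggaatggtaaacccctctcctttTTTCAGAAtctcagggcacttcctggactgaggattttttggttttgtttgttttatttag
Ctsg: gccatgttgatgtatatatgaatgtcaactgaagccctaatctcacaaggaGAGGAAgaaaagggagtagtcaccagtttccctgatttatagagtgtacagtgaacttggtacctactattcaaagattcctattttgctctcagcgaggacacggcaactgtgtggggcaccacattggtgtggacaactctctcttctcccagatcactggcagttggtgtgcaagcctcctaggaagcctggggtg
Mmp8: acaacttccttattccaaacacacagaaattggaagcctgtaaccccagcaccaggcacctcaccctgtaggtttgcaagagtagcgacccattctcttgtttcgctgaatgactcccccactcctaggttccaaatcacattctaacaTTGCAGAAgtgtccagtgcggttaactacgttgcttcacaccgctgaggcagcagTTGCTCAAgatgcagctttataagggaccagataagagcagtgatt
S100a9: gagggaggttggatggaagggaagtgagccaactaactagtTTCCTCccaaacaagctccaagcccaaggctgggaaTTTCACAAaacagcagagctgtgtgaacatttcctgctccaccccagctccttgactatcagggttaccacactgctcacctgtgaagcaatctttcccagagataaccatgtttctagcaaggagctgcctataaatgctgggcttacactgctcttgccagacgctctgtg

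GAGGAA stood in the windows of 3 of the 4 primary members with an entry, at 93 bases before the start in Prtn3, 135 in Mpo (other strand), and 199 in Ctsg. Among the later members with an entry it stood in 1 of 4, S100a9, 209 bases before the start (other strand). Over all 33469 rat promoter windows of this length, 23.3% held it. The C/EBP form was held by 2 of 4 in each class (Mpo and Defa11 against Mmp8 and S100a9) and by 37.2% of all windows. Matches on either strand to AACNG (MYB) stood in 3 of 4 primary and 4 of 4 later windows against 75.2% of all, matches to TGTGGT (RUNX) in 2 and 1 against 14.5%, and matches to TATAAA (the TATA box) in 1 and 2 against 12.9%. With so few windows these counts only describe the letters, and a match is not a binding site.

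All 5 primary granule genes were abundant in the control libraries and far lower in the model libraries. The unit is FPKM, fragments scaled by the authors to the length of the gene, which allows levels to be compared between genes, and to a size of the library that was not its read total. That size was 2.01 to 2.18 times the reads in the control libraries, 0.193 times in model library 1, 1.44 times in model library 2, and 0.343 times in model library 3. Elane stood at 135, 176, and 104 FPKM in the control libraries, at 7.90, 0.460, and 0 in the model libraries, and at 5.62, 11.01, and 12.1 in the SYD-H libraries. Mpo, which encodes the myeloperoxidase that makes hypochlorous acid, stood at 248, 257, and 163 FPKM in the control, 52.5, 0.621, and 19.5 in the model, and 6.24, 14.0, and 20.3 in the SYD-H libraries. For both genes every control library lay above every other library, and model library 2 stood far below model library 1.

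The other three primary members also stood higher in every control library than in the rest. Prtn3 stood at 47.9, 75.0, and 28.9 FPKM in the control, 3.69, 0.694, and 3.50 in the model, and 2.17, 3.80, and 1.71 in the SYD-H libraries. Ctsg, which encodes the serine protease cathepsin G, stood at 123, 167, and 93.4 FPKM in the control, 36.6, 2.68, and 19.9 in the model, and 2.74, 12.2, and 1.68 in the SYD-H libraries. Defa11, an alpha-defensin or pore-forming peptide, stood at 50.6, 49.6, and 44.2 FPKM in the control, 0, 0, and 8.76 in the model, and 0.0783, 1.02, and 9.21 in the SYD-H libraries. Alpha-defensins have near-identical copies, so the reads of Defa11 could be split among them and its values are uncertain. The zeros were also of unequal weight, since 3 reads of Defa11, taken as the floor, would give 1.72 FPKM in model library 1 and 0.236 in model library 2.

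The mean of Elane was 49.7-fold lower in the model than in the control group (2.79 ± 4.43 against 138 ± 36.4 FPKM, SD, n = 3 each), and those of Prtn3 and Defa11 were 19.3-fold and 16.5-fold lower. The model means of Elane and Defa11 rest mostly on 1 library each, and the log2 difference was -6.82 for Elane without model library 1 and -5.62 for Defa11 without model library 3. Mpo was 9.19-fold lower (24.2 ± 26.2 against 222 ± 51.7) and Ctsg 6.49-fold lower (19.7 ± 16.9 against 128 ± 37.1). On the log2(FPKM + 1) scale, which understates changes of low genes, the differences between model and control were -5.86 (SE 0.82) for Elane, -4.18 (SE 1.23) for Mpo, -3.87 (SE 0.54) for Prtn3, -3.14 (SE 0.85) for Ctsg, and -4.52 (SE 0.91) for Defa11. The median over all 13898 genes with a mean of at least 0.5 FPKM was -0.23. All 5 lay without overlap below the control libraries, as did 20% of all tested genes, while 8.65% lay above. That share is the background for a count to which the choice of genes contributed, and nothing is read from it.

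The later genes did not share one pattern. Camp, which encodes the antimicrobial peptide cathelicidin, stood at 233, 483, and 295 FPKM in the control, 90.6, 2.32, and 40.3 in the model, and 22.1, 46.4, and 206 in the SYD-H libraries, so its groups did not overlap with the control. Mmp8, the neutrophil collagenase that cleaves fibrillar collagen, stood at 44.3, 109, and 80.5 FPKM in the control, 166, 0.593, and 20.6 in the model, and 15.8, 10.2, and 60.3 in the SYD-H libraries. Its highest value was in model library 1 and its lowest in model library 2.

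S100a8 and S100a9, the calprotectin subunits, were the most abundant members in every library. S100a8 stood at 1239, 2312, and 1564 FPKM in the control, 4068, 46.7, and 1007 in the model, and 271, 418, and 1761 in the SYD-H libraries. S100a9 stood at 859, 1935, and 1273 FPKM in the control, 3345, 15.8, and 820 in the model, and 211, 319, and 1221 in the SYD-H libraries. For both, model library 1 was above and model library 2 below all control libraries, so the groups overlapped. Ltf, which encodes the iron-binding lactoferrin of the specific granules, was barely detected, with 2, 7, and 20 reads in the control, 0 in each model library, and 0, 14, and 17 in the SYD-H libraries. It was below the filter for testing, and no fold change is given for it. The other 9 of the 10 members passed that filter and are called tested below, but no p-value is given for any member.

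**Figure D1:**
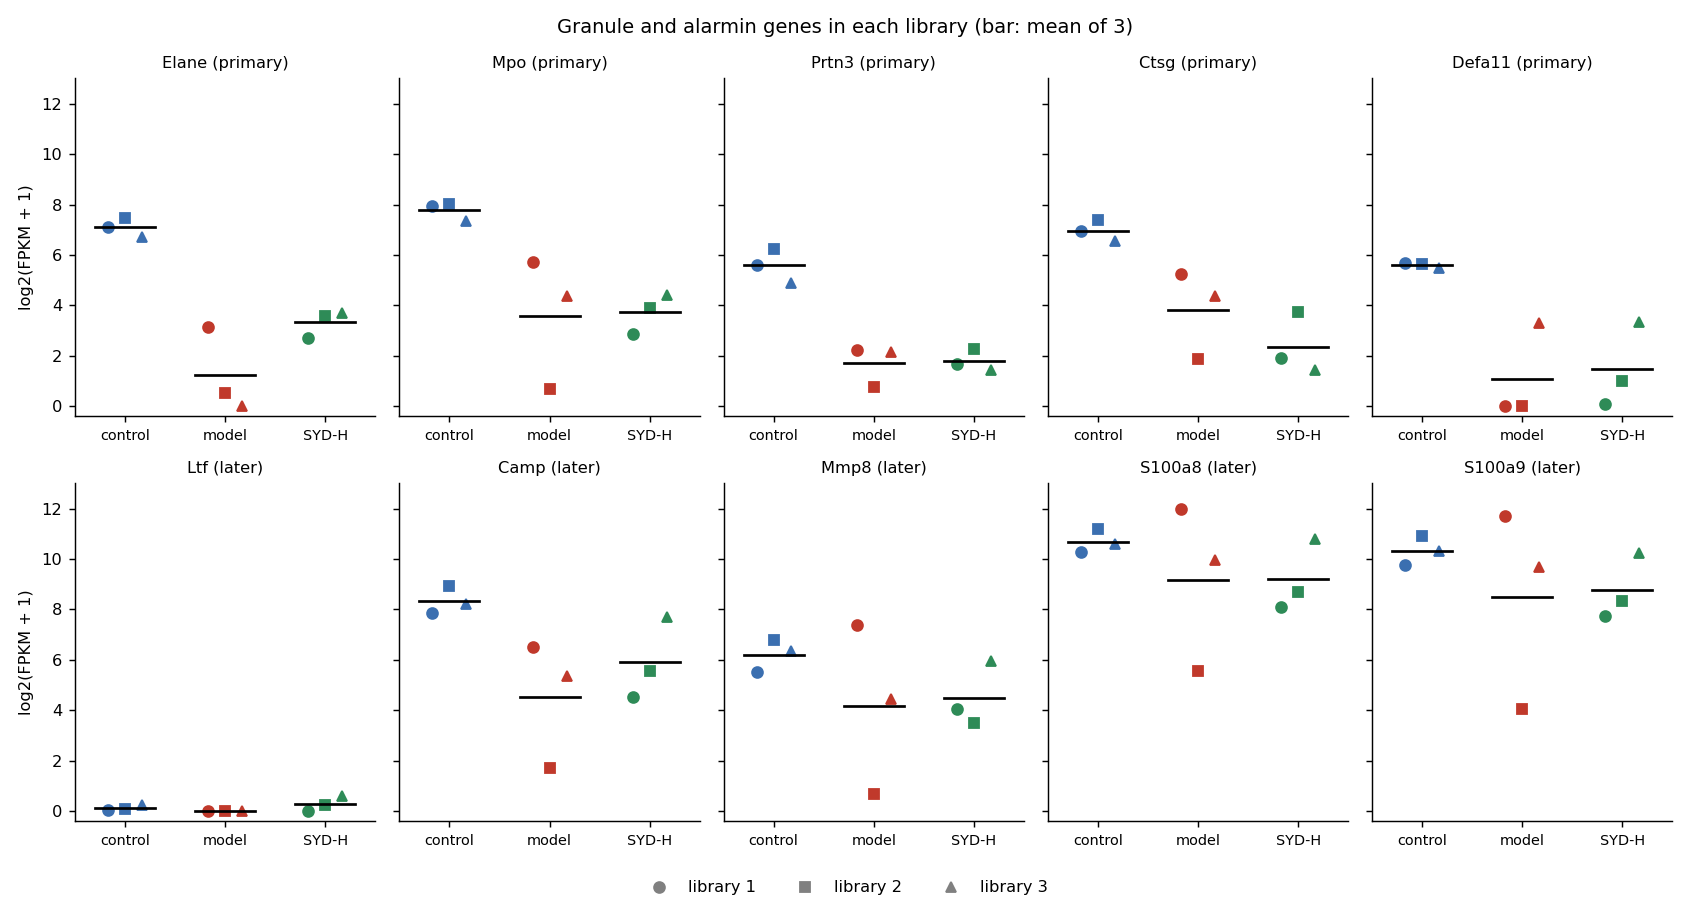
Level of each of the 10 genes in each of the 9 libraries, as log2(FPKM + 1) on the vertical axis, with the 3 groups along the horizontal axis, marker shapes for libraries 1 to 3, and a bar at the mean of 3. In the top row (primary) all control points lie above all others, and in the bottom row (later) only Camp shows this, while S100a8, S100a9, and Mmp8 span the control range in the model group.

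The mean of S100a8 was 1707 ± 2100 FPKM in the model and 1705 ± 550 in the control group (SD, n = 3 each), and that of S100a9 was 1393 ± 1737 against 1356 ± 543. Because the spread in the model group exceeded its mean, the log2 differences were -1.51 (SE 1.59) for S100a8, -1.84 (SE 1.89) for S100a9, and -2.05 (SE 1.60) for Mmp8. Camp differed by -3.79 (SE 1.20). Model library 2 decided the sign for calprotectin, since without it the difference was 0.30 for S100a8, 0.37 for S100a9, and -0.30 for Mmp8. Without the same library, the primary genes Mpo and Ctsg still differed by -2.73 and -2.16, Prtn3 by -3.39, Elane by -5.51, and Defa11 by -3.97, and Camp by -2.39. Without model library 1, in which Mmp8, S100a8, and S100a9 were highest, S100a8 differed by -2.91 and Mmp8 by -3.66.

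Within one library, the primary genes can be set against the later genes, which removes what scales both. The summed FPKM of the 5 primary genes was 25.5%, 15.0%, and 13.5% of that of the 5 later genes in the control libraries. It was 1.31%, 6.81%, and 2.74% in the model libraries and, with SYD-H, 3.24%, 5.30%, and 1.39%. The group means were 18.0% ± 6.52, 3.62% ± 2.85, and 3.31% ± 1.96 (SD, n = 3 each), with the control libraries above the 6 others. S100a8 and S100a9 made up most of the later sum.

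Against Camp and Mmp8 alone, the primary sum was 218%, 122%, and 115% in the control, 39.2%, 153%, and 84.8% in the model, and 44.5%, 74.3%, and 16.9% in the SYD-H libraries. With this denominator the model and control groups overlapped, through model library 2, which had 4.45 FPKM of primary genes and 2.92 FPKM of Camp and Mmp8. The SYD-H libraries lay below all control libraries on both measures. As a mean of logs, the 5 primary genes minus the 5 later genes came to -0.53 ± 0.46 in the control, -2.98 ± 1.31 in the model, and -3.20 ± 0.92 in the SYD-H group (log2, SD, n = 3 each). With Ltf, near 0 in all libraries, left out of the later genes, it came to -2.28, -4.30, and -4.56, and at a pseudocount of 0.1 in place of 1 the control value was -0.023. This contrast is the one for which the genes were chosen, and it was not tested.

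**Figure D2:**
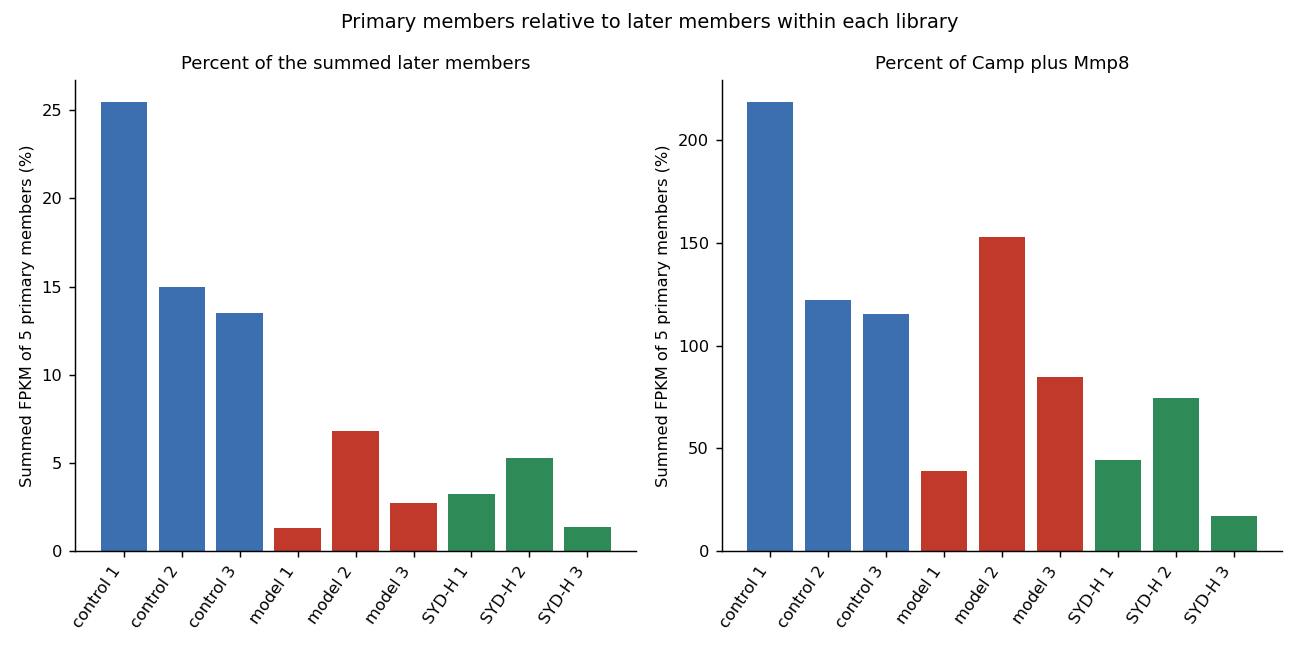
Summed FPKM of the 5 primary genes in each library, as a percent of the summed 5 later genes (left) and of Camp plus Mmp8 (right), with bars starting at 0 and colored by group. On the left the control bars, 13.5% to 25.5%, stand above all others, and on the right model library 2, at 153%, lies within the control range.

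Single ratios showed how unequal the genes were. S100a9 was 3.47, 7.54, and 7.81 times the level of Mpo in the control libraries, 63.7, 25.4, and 42.0 times in the model libraries, and 33.8, 22.7, and 60.1 times in the SYD-H libraries, without overlap between the control and the other groups. By contrast, S100a8 was 1.19 to 1.44 times the level of S100a9 in 8 libraries and 2.97 times in model library 2, where S100a8 rested on 441 reads and S100a9 on 281. Mpo stood at 1.54 to 2.01 times Ctsg in the control libraries, at 0.232 times in model library 2, and at 12.1 times in SYD-H library 3, where Ctsg had 29 reads.

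The question put to the SYD-H group was whether the extract shifts the expression of the diseased joint. No member separated the SYD-H from the model libraries, and all 9 tested members overlapped. Among all tested genes, 3.17% lay without overlap below and 7.89% above the model libraries. The log2 difference was largest for Elane at 2.11 (SE 0.88), from a mean of 2.79 FPKM in the model to 9.57 ± 3.47 in the SYD-H group (SD, n = 3), with the model library at 7.90 FPKM above the lowest SYD-H library. The differences were 0.13 for Mpo, 0.07 for Prtn3, 0.40 for Defa11, 1.39 for Camp, 0.33 for Mmp8, 0.01 for S100a8, and 0.28 for S100a9, beside a median over all genes of 0.22. Ctsg differed by -1.48 (SE 1.00), by 0.12 when the values were rescaled to TPM, in which every library has the same total and the median of all genes was 1.22, by -1.45 with TPM without mitochondrial genes, and by -1.47 with quantile normalization. Elane kept its sign under all alternatives, Ctsg changed sign only with TPM and with voom on the recovered reads, and the other tested members each changed sign when 1 library was left out. Without model library 2 the differences were -1.79 for S100a8, -1.93 for S100a9, -1.41 for Mmp8, and -1.32 for Mpo.

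The SYD-H libraries were below the control libraries in the primary genes. The log2 differences from control were -3.75 (SE 0.33) for Elane, -4.05 (SE 0.43) for Mpo, -3.80 (SE 0.39) for Prtn3, -4.62 (SE 0.62) for Ctsg, and -4.12 (SE 0.81) for Defa11, and all 5 lay without overlap below the control, against 22.2% of all tested genes, with 20.3% above. Of the 4 tested later genes, Camp lay below without overlap (-2.40, SE 0.82), and Mmp8 (-1.71, SE 0.69), S100a8 (-1.50, SE 0.76), and S100a9 (-1.56, SE 0.73) overlapped through SYD-H library 3. Without that library the differences were -3.28 for Camp, -2.29 for S100a8, and -2.30 for S100a9, and without SYD-H library 1 they were -1.70, -0.94, and -1.04. They also depended on the scaling, since quantile normalization gave -5.48 for S100a8 and -4.77 for S100a9, and TPM gave -3.05, -3.11, and -3.29 for S100a8, S100a9, and Mmp8, beside a median of all genes of -1.31. Both comparisons with the control share its 3 libraries.

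The libraries differed in ways that moved with these values. The depth recovered from the table was 14914121 to 19510537 reads, of which the mitochondrial genes took 4.05% to 4.86% in the control, 39.5% to 90.7% in the model, and 23.7% to 72.7% in the SYD-H group. Reads outside these genes numbered 1744769 in model library 1, 11106680 in model library 2, and 3611325 in model library 3, so Elane rested on 26, 11, and 0 reads there against 3673, 5873, and 3700 in the control. Model library 2, the lowest in most members, was thus the deepest of its group outside the mitochondrial genes. The part of the mitochondrial share in the differences was not tested. In addition, the authors' FPKM are not scaled to the sum, and rescaling to TPM moved the median of all genes between model and control from -0.23 to -2.60, with Elane at -8.64, Mpo at -7.51, S100a8 at -4.72, and S100a9 at -5.07. With the mitochondrial genes left out of the TPM, the median was -0.64, with Elane at -7.20, Mpo at -4.78, S100a8 at -1.74, and S100a9 at -2.10. Quantile normalization gave -6.50 for S100a8 and -5.99 for S100a9, beside a median of -0.10. In bulk tissue, fewer cells of a type and less RNA per cell cannot be told apart.

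The profiles of the members over the 9 libraries were compared by the root mean square distance of log2(FPKM + 1), each gene centered on its own mean. Pairs of later genes were 0.372 to 1.07 apart (median 0.752, 6 pairs), with S100a8 and S100a9 the closest at 0.372 and Mmp8 and S100a8 next at 0.448. Pairs of primary genes were 0.868 to 1.81 apart (median 1.30, 10 pairs), with Prtn3 and Ctsg the closest, and mixed pairs were 0.873 to 2.31 apart (median 1.82, 20 pairs). The closest mixed pair was Mpo and Camp at 0.873. These distances describe genes chosen for the contrast.

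Among all other tested genes, the nearest to the mean profile of the primary members was Fcnb, the pattern-recognition protein ficolin B, at a distance of 0.388 (median of all genes 2.17). It stood at 175, 199, and 161 FPKM in the control, 25.1, 0.940, and 10.9 in the model, and 5.67, 7.31, and 9.67 in the SYD-H libraries. Next came the defensins Defa5 (0.536) and Np4 (0.595), an immunoglobulin heavy chain entry named Ighm but described as constant epsilon (0.612), and Srgn (0.705), the serglycin core protein that packs granule contents. The later members were nearest to Ifitm6 (0.495), an interferon-induced membrane protein, Mcemp1 (0.552), Coro1a (0.677), which encodes an actin-binding protein of leukocytes, Epb42 (0.711), a red cell membrane protein, and Napsa (0.721), with a median of all genes of 2.09. Ifitm6 stood at 23.7, 56.0, and 41.2 FPKM in the control, 60.0, 0.847, and 19.4 in the model, and 6.85, 6.26, and 27.9 in the SYD-H libraries. The latter set thus held a marker of red cells beside leukocyte genes.

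Other genes of the neutrophil lineage were then taken from 5 written lists of 66 names, of which 63 were found and 55 entries were tested with limma. A gene was called when its unadjusted p-value was under 0.05 and its log2 difference over 1 in size, which are the study's criteria. Between model and control, 26 of the 55 fell and 1 rose, with a median difference of -1.58. Over all tested genes 14.7% were called, 11.2% as lowered and 3.55% as raised, against 47.3% of the list as lowered. At a Benjamini-Hochberg adjusted p-value under 0.05, 5 of the 55 were called, against 2.59% of all genes, and these were Lyz2, Srgn, Itgam, Il1r2, and Trem1. Rescaling to TPM gave 53 lowered and 0 raised, on a scale that lowered 74.9% of all genes, and quantile normalization 26 and 1. Leaving out control library 2 or 3 reduced the lowered genes to 17 or 16, and leaving out model library 2 to 21 with 2 raised. In these 3 fits, in that order, 7.5%, 7.43%, and 18.4% of all genes were lowered.

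**Figure D3:**
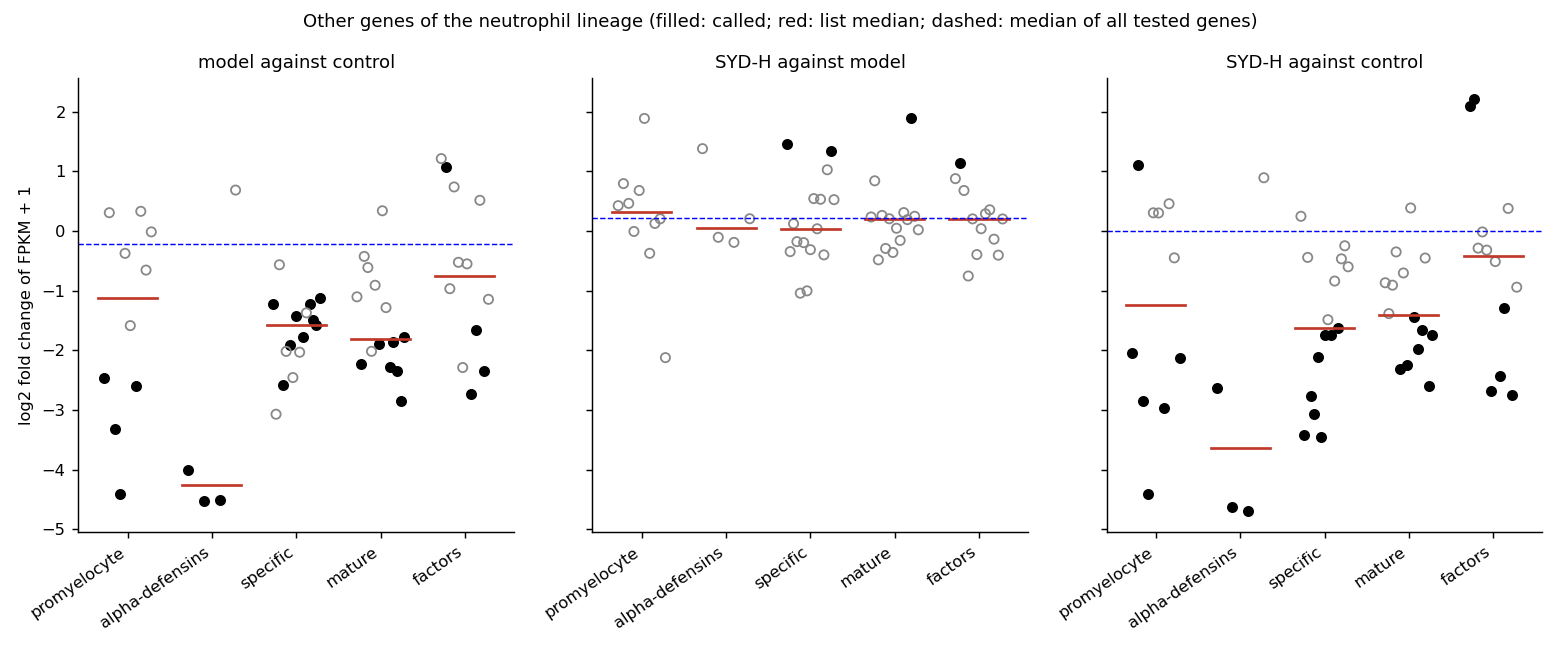
Log2 difference of FPKM + 1 (vertical axis) of each tested gene of the 5 neutrophil lineage lists (horizontal axis) in the 3 comparisons, with filled points for called genes, a red bar at the median of the list, and a dashed line at the median of all tested genes. In both comparisons with the control the filled points lie mainly between -1 and -5, and between SYD-H and model only 4 points are filled, all above 1.

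Of the promyelocyte list, which shares the stage of the primary members, 4 of 10 tested genes fell in the model group (median -1.12), against 11.2% of all genes. The median was -0.50 without model library 3, where that of all genes was -0.21, and 3 genes fell without control library 2, model library 1, or model library 2. Lyz2, which encodes lysozyme, fell from 942, 1553, and 1043 FPKM to 264, 191, and 177, a log2 difference of -2.47 (SE 0.39, limma adjusted p = 0.0406). Srgn fell by 3.32 on the log2 scale (SE 0.46, limma adjusted p = 0.0382), from 363, 452, and 261 FPKM to 63.3, 21.3, and 29.4. Fcnb fell by 4.40, whereas Cd63, a membrane protein of many granule types and of other cells, differed by 0.31 (SE 0.43). Of 4 tested alpha-defensins, 3 fell, namely Np4 (-4.53), Defa5 (-4.51), and RatNP-3b (-4.01), and Defa10 stood at 0.69 (SE 1.39). Np4 was at 1149, 1258, and 717 FPKM in the control and 170, 9.72, and 45.0 in the model libraries, but its near-identical copies make the defensin values uncertain.

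Of the specific and gelatinase granule genes, 9 of 15 fell in the model group (median -1.58). Over all tested genes 11.2% were lowered and the median was -0.23. The count of the list was 5 without control library 2 and 3 without control library 3. Without these libraries 7.5% and 7.43% of all genes were lowered. Lcn2, the iron-siderophore binding lipocalin, fell from 88.6, 165, and 119 FPKM to 38.1, 8.42, and 21.5 (-2.59, SE 0.55), and Cybb, the NADPH oxidase subunit, differed by -1.92 (SE 0.60), a call lost without control library 3, model library 2, or model library 3. Mmp9, the gelatinase, fell by 1.22 (SE 0.38), a call lost without control library 1, control library 3, or model library 1. Ngp, neutrophilic granule protein, stood at 209, 441, and 333 FPKM in the control against 213, 2.65, and 65.7 in the model libraries, and was not called. Of the receptors and effectors of mature neutrophils, 7 of 14 fell (median -1.81), but 4 without control library 2 or 3 and 13 without model library 1. Of all tested genes 11.2% were lowered in the main fit and 12.3% without model library 1. Il1r2, the decoy receptor for interleukin-1, and Trem1, an activating receptor, were at 0 in all 3 model libraries and at means of 4.43 ± 2.38 and 6.32 ± 1.46 FPKM in the control (SD, n = 3 each), which makes them at least 13.1-fold and 13.6-fold lower at a floor of 3 reads per library. Both already lay below the median of their list, so the bounds leave it in place. Alox5ap, needed for leukotriene synthesis, fell by 2.23, whereas the oxidase subunits Ncf1 (-1.10) and Ncf4 (-0.43) did not pass.

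Of 12 tested transcription factors of granulopoiesis, 3 fell and 1 rose in the model group (median -0.76). Over all tested genes 11.2% were lowered and 3.55% raised, with a median of -0.23. At a limma adjusted p-value under 0.05, 0 of the 12 were called. Without model library 1, 7 of the factors fell (median -1.35), beside 12.3% of all genes lowered. Without model library 3 the median of the list was -0.48. Myb, needed for progenitor growth, and Gfi1, which drives neutrophil differentiation, fell by 2.73 (SE 0.51) and 2.35 (SE 0.58), and Irf8 was the other factor called as lowered, named here after its values were seen. Cebpb, the C/EBP factor of emergency granulopoiesis, rose from 7.34, 9.29, and 9.67 FPKM to 19.3, 16.5, and 23.2 in the model (1.08, SE 0.25) and stood at 74.0, 27.4, and 42.0 in the SYD-H libraries. Its direction between model and control flipped to -1.91 with TPM, where the median of all genes was -2.60, and the call was lost without control library 1 or model library 3. Spi1, which encodes PU.1, stood at 27.0, 33.3, and 27.7 FPKM in the control, 37.3, 16.4, and 4.52 in the model, and 23.9, 21.5, and 26.1 in the SYD-H libraries, and was not called. Levels of the factors are those of the whole tissue, in which other cells also express Cebpb, Cebpd, and Spi1.

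Against the control, the SYD-H group had 27 of 55 lineage genes lowered and 3 raised, with a median of -1.39, while 16.5% of all genes were called, 9.22% as lowered and 7.25% as raised. By Benjamini-Hochberg adjustment of limma's p-values at 0.05, 27 of the 55 were called, against 17.3% of all genes. Fcnb fell by 4.41 (SE 0.20, limma adjusted p = 0.00436), Defa5 by 4.70, Np4 by 4.63, and Trem1 by 2.61. The 3 raised genes were Cd63 (1.10, not called without control library 2), Cebpb (2.21), and Cebpd (2.09). With TPM 42 genes of the lists were lowered and 0 raised, on a scale that lowered 42.5% of all genes, with Cd63 at -0.44 beside a median over all genes of -1.31, and with TPM without mitochondrial genes 29 were lowered and 3 raised. Prss57, a primary granule serine protease named here after its values were seen, was at 2.97 to 3.72 FPKM in the control and at 0 in all SYD-H libraries, at least 18.3-fold lower, while the model libraries stood at 12.5, 0, and 5.10.

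Between SYD-H and model, 4 of the 55 rose and 0 fell by the same rule, with a median of 0.20, while 4.15% of all genes were called, 0.532% as lowered and 3.62% as raised. These were Mmp9 (1.47), Adam8 (1.33), Il1r2 (1.89), and Cebpb (1.14), with a limma adjusted p of 0.723 for each, and Adam8, a membrane metalloprotease, is named as one of so few. Mmp9 stood at 409, 270, and 202 FPKM in the SYD-H libraries against 72.9, 143, and 99.4 in the model and 308, 164, and 263 in the control libraries. Il1r2 stood at 6.55, 0.871, and 2.59 against 0 in each model library. In this comparison 0 genes of the table passed the Benjamini-Hochberg adjustment of limma's p-values at 0.05, with 731 genes at an unadjusted p-value under 0.05 (5.26%). The calls of Mmp9, Adam8, and Il1r2 held when any 1 library was left out, and that of Cebpb was lost without model library 1, model library 2, SYD-H library 1, or SYD-H library 3. Neither Mmp9 nor Il1r2 is made by neutrophils alone, since osteoclasts also express Mmp9 and monocytes Il1r2.

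Of 13 tested genes of other S100 proteins and alarmins, 4 rose and 1 fell in the model group, with a median of 0.91, beside 3.55% raised and 11.2% lowered among all genes. S100a4, a protein of motile and mesenchymal cells, rose from 57.1, 55.7, and 65.1 FPKM to 158, 291, and 417 (2.16, SE 0.39) and stood at 214, 319, and 246 in the SYD-H libraries. S100a10, the annexin A2 partner, rose by 1.81 (SE 0.56), a call lost without control library 2, model library 2, or model library 3, and S100a11 differed by 0.91 (SE 0.37). With TPM the differences of S100a4 and S100a10 turned to -1.02 and -1.35, which are 1.58 and 1.24 above the median of all genes on that scale, and the list had 0 raised and 4 lowered, against 74.9% of all genes lowered with TPM. Il33, an epithelial and stromal alarmin, rose by 1.92 (SE 0.66), and this call was lost without any 1 of the control libraries. Hmgb2, the chromatin protein of dividing cells, fell by 2.68 (SE 0.84), from 232, 429, and 270 FPKM to 136, 12.2, and 55.8, and its call was lost without control library 2.

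Of 7 tested receptors of S100a8 and S100a9 or their adaptors, none was called between model and control, and 0 had an unadjusted p-value under 0.05 in limma, against 19.2% of all genes. Bsg, the most abundant, stood at 109, 58.6, and 82.5 FPKM in the control, 14.2, 63.0, and 44.9 in the model, and 96.5, 97.0, and 59.2 in the SYD-H libraries. Cd14, a co-receptor of Tlr4, rose in the SYD-H group against both the control (1.37, SE 0.22) and the model group (2.23, SE 0.80, limma adjusted p = 0.723), from 5.26, 3.46, and 4.67 FPKM in the control and 0, 8.04, and 1.97 in the model to 16.4, 12.8, and 10.4. The call against the model group was lost without model library 3 or any 1 SYD-H library. Of 7 tested inhibitors of the granule proteases, 0 were called between model and control and 0 had an unadjusted p-value under 0.05 in limma. Between SYD-H and control 3 of the 7 rose and 1 fell, beside 7.25% raised and 9.22% lowered among all genes. Serpinb1a, an inhibitor of elastase, cathepsin G, and proteinase 3, fell by 1.78 (SE 0.43), and Timp1 and Serpinb6a rose by 2.14 (SE 0.47) and 1.43 (SE 0.24), on the FPKM scale. TPM gave 0.65 and 0.0047, which are 1.97 and 1.32 above the median of all genes on that scale.

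Markers of other cells were followed in the same libraries. The defining neutrophil receptor Csf3r, named here after its values were seen, was at 8.44 to 14.7 FPKM in the control and at 9.85, 0, and 1.46 in the model libraries. Of the B lineage list, 10 of 12 genes fell in the model group and 10 of 12 in the SYD-H group, against 11.2% and 9.22% of all genes. Its summed level was 339 to 440 FPKM in the control, 29.1 to 69.6 in the model, and 23.8 to 57.9 in the SYD-H group. Cd79a, part of the B cell receptor, stood at 155, 197, and 172 FPKM in the control and 31.4, 1.29, and 23.8 in the model libraries, and Cd72 fell by 4.80. Of the cell cycle list, 10 of 11 fell in the model and 11 of 11 in the SYD-H group, beside the same shares of all genes, with Mki67 at 37.4, 61.7, and 44.8 FPKM in the control and 9.87, 3.61, and 9.80 in the model libraries. Precursor B cells are, like promyelocytes, cells of the marrow. The part of marrow cells in the levels of the primary genes was not tested.

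Red cell genes were followed beside the later members. The summed erythroid list stood at 6771, 16880, and 8409 FPKM in the control, 39190, 311, and 45360 in the model, and 1385, 1969, and 14040 in the SYD-H libraries, with 1, 5, and 1 of its 13 genes at 0 in the model libraries. In the model group 1 of 13 was called, Tspo2, which fell to 0 in all 3 libraries, and in the SYD-H group 8 of 13 fell, against 11.2% and 9.22% of all genes lowered. Model library 2 and SYD-H libraries 1 and 2 were the lowest in this sum, and they were also the lowest in S100a8 and S100a9. Model library 3 had the highest sum of all 9 libraries, and its S100a8, S100a9, Camp, and Mmp8 lay below every control library. The part of blood or marrow in the S100a8 and S100a9 levels was not tested. The macrophage list overlapped, at 132 to 173, 81.7 to 230, and 142 to 299 FPKM, with 0 of 9 called in the model group and 0 with an unadjusted p-value under 0.05 in limma.

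**Figure D4:**
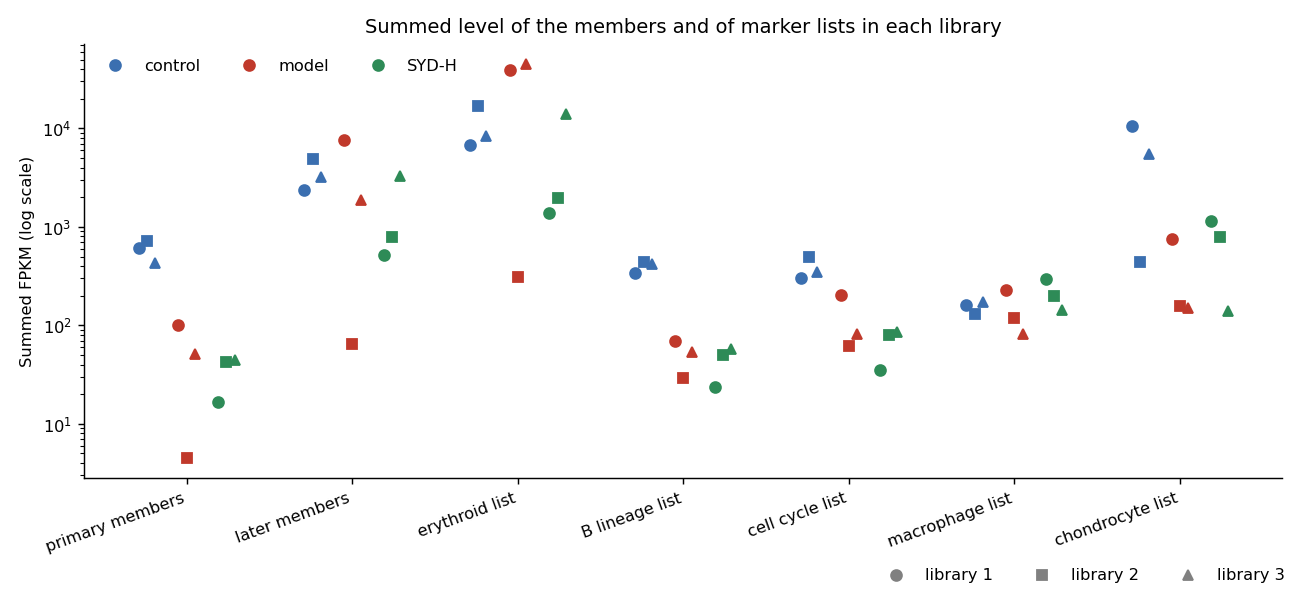
Summed FPKM of the primary and later members and of 5 marker lists in each library, on a log scale, with colors for the groups and shapes for libraries 1 to 3. The primary members, the B lineage, and the cell cycle list are highest in the control group, and the later members and the erythroid list are lowest in model library 2.

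The labelled tissue was checked with its own markers. Col2a1, the cartilage collagen, stood at 8323, 348, and 4468 FPKM in the control, 606, 39.0, and 56.1 in the model, and 609, 431, and 42.4 in the SYD-H libraries, and the summed chondrocyte list was 10640, 443, and 5525 FPKM in the control libraries. Control library 2, the lowest of its group in chondrocyte genes, was the highest of its group in Elane, Camp, S100a8, and S100a9. In the model group 7 of 10 chondrocyte genes fell, against 11.2% of all genes. Control library 1, with the most Col2a1, held 248 FPKM of Mpo. The part of chondrocyte content in the levels of the members was not tested. Leaving out control library 2 moved Elane from -5.86 to -5.67, and S100a8 from -1.51 to -1.26, between model and control. Of mast cell, basophil, and eosinophil genes, 4 of 12 fell and 1 rose in the model group, with Prg2 at 38.3, 41.9, and 439 FPKM in the control libraries, and of 4 tested cytotoxic lymphocyte genes only Nkg7 was called, at 27.1 to 41.7 FPKM in the control and 0 in all model libraries, at least 69.3-fold lower. Of 6 tested skeletal muscle genes, none was called and 0 had an unadjusted p-value under 0.05 in limma.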

How the data were processed

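A single table of gene FPKM that the authors deposited covers 9 libraries of rat knee cartilage (3 control, 3 model, 3 SYD-H), with gene names, positions, and lengths, and all columns of values were used (0 left out). Per the labels, the libraries were made with the Illumina TruSeq kit, and the submitters' processing notes list HISAT2 2.0.5 and hg38, a human build, although the gene identifiers are those of the rat. The counting tool and annotation are not given in the sources used here. Every value was a whole multiple of 1 step per library and gene length (100% of values, tolerance 0.1), which gave reads and a floor of 3 reads, covering counting error only. Reads without molecular identifiers are not molecules.

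Differences were fitted with limma 3.58.1 in R 4.3.3 (lmFit, eBayes with trend, two-sided) on log2(FPKM + 1) for the 13898 genes averaging 0.5 FPKM or more, using the 6 libraries compared. Calls followed the study's rule (unadjusted p under 0.05, log2 difference over 1), with Benjamini-Hochberg adjusted p-values over all tested genes beside it. Fold changes of members are ratios of mean FPKM. The fit was tested on simulated data.

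The members and the 16 other gene lists were chosen with earlier results of these data known. Named were all members; of each list, up to 4 genes with the highest mean FPKM and up to 2 called genes per direction with the largest difference between model and control; and the 5 genes closest in profile to each class. Others are said to be named after their values were seen. Alternatives were a pseudocount of 0.1, no filter or a mean of at least 1 FPKM, TPM with and without mitochondrial genes, quantile normalization, 1 fit of all 9 libraries, the replicate number as a block, robust eBayes, adjusted p-values, and leaving out each library. Of the alternatives, voom on recovered reads and a later class of the 4 tested genes were chosen after seeing the data. No set test was run. Promoter windows came from RefSeq (GRCr8).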

Additional observations from a re-analysis of the deposited data

How the results depend on the processing

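Between model and control, the 2046 called genes became 10445 with TPM, 360 with adjusted p-values, and 3275 with voom on the recovered reads, and the 27 called genes of the neutrophil lineage became 53 with TPM and 5 with adjusted p-values. Leaving out 1 library gave 1309 (without control library 2) to 3344 (without model library 2) called genes and 17 (without control library 3) to 37 (without model library 1) lineage genes. Lowered genes made up 75.9% of the calls, against 99.6% with TPM, 84.9% with TPM without mitochondrial genes, and 65.9% with quantile normalization. Between SYD-H and model, the 577 called genes became 1220 in 1 fit of all 9 libraries, 0 with adjusted p-values, and 1078 with voom, and leaving out 1 library gave 315 (without SYD-H library 1) to 2495 (without model library 2). The 4 lineage genes became 9 with TPM, 0 with adjusted p-values, and 7 with voom, and 3 to 6 on leaving out 1 library. Lowered genes made up 12.8% of these calls, 1.89% with TPM, and 28.4% with quantile normalization. Between SYD-H and control, the 2289 called genes became 6029 with TPM, where 97.9% were lowered against 56.0%, and 1788 to 2603 on leaving out 1 library, with 25 to 34 lineage genes against 30.

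Of the members' log2 differences, 254 values under the alternatives moved by less than 1 SD between replicates and 43 by more, mostly with TPM and voom. This SD is that of the gene itself and is large where replicates differ, so the 254 include changes of sign. Between model and control, S100a8 moved from -1.51 to 0.30 without model library 2 and is counted among them. Primary minus later genes in the control group was -0.53, but -0.023 at a pseudocount of 0.1, -1.95 with quantile normalization, and -2.28 with the 4 tested later genes, which gave -4.30 in the model and -4.56 in the SYD-H group. On leaving out 1 library it was -0.78 to -0.32 in the control, -3.65 to -2.34 in the model, and -3.61 to -2.70 in the SYD-H group. The cause of these shifts was not tested.

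Over 9 pairs of libraries with the same replicate number, correlations of deviations from the group means were -0.267 to 0.194, with 2 over 0.1. Of the 9 libraries, 1 correlated best with its own number. Deviations within groups of 3 libraries are not independent, so these values cannot decide whether a replicate number marks a shared batch. With the replicate number as a block, 1668, 526, and 2259 genes and 26, 4, and 31 lineage genes were called in the 3 comparisons, in the order model against control, SYD-H against model, and SYD-H against control. Depth limits model libraries 1 and 3 most, since 3 reads of Elane correspond to 0.912 and 0.499 FPKM there. The same reads correspond to 0.125 FPKM in model library 2, 0.288 in SYD-H library 3, and 0.0841 in control library 3.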

Other observations

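Between SYD-H and control, 5 of 13 tested genes of other S100 proteins and alarmins rose and 1 fell (limma, unadjusted p under 0.05 and log2 difference over 1), beside 7.25% raised and 9.22% lowered among all genes. The genes below are named after their values were seen. S100a6, the calcyclin of proliferating and stromal cells, stood at 53.4, 33.8, and 46.6 FPKM in the control, 34.2, 272, and 218 in the model, and 202, 256, and 174 in the SYD-H libraries. Its log2 difference from control was 2.22 (SE 0.24) in the SYD-H group, and 0.70 with TPM, where the median of all genes was -1.31. In the model group the same gene differed by 1.52 (SE 0.79) and was not called. S100a16 stood at 11.9, 7.80, and 13.6 FPKM in the control and 31.2, 36.9, and 59.0 in the SYD-H libraries. With TPM, 0 genes of the list were called as raised and 2 as lowered, against 42.5% of all genes lowered on that scale.

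Among genes of mast cells and basophils, Ms4a2, the beta chain of the immunoglobulin E receptor, was at 3.59, 6.49, and 3.30 FPKM in the control, at 0 in all 3 model libraries (at least 24.5-fold lower at a floor of 3 reads per library), and at 1.99, 0.568, and 1.20 in the SYD-H libraries. Mcpt1l1, a mast cell protease, rose in the model group from 1.28, 0.679, and 1.73 to 3.43, 7.49, and 3.18 FPKM (1.30, SE 0.44). Both values rest on few reads in model libraries 1 and 3.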
